A study of Mus musculus with 15 samples.

Results

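The cholesterol synthesis genes examined here are a named set of 8, chosen by symbol: Hmgcs1, Idi1, Fdft1, Sqle, Lss and Cyp51, which encode enzymes of the pathway, and Srebf2 and Insig1, which regulate it. All 8 were among the 25080 genes listed for every library, and all 8 were among the 13471 genes that passed the filter on low values (a TPM, the length-corrected share of transcripts, of at least 1 in at least 3 libraries). RNA was sequenced from whole dissected thalamus of mice 2 to 4 months old that had received saline for 3 days and then either cocaine (20 mg/kg, intraperitoneal) or saline for 5 days. Mice titled Maged1 cKO carried a loxP-flanked Maged1 gene and a Cre recombinase driven by the Vglut2 promoter, so that only Vglut2 glutamatergic neurons should lose Maged1 and every other cell of the tissue keeps it. Mice titled Maged1 WT served as controls. Most of them are given as Maged1 Loxp in the genotype tag, with exceptions named below, and the study's methods describe floxed littermates. Files of 14 of the 15 samples were used: with saline there were 4 control and 4 cKO libraries, and with cocaine 4 labelled control and 2 labelled cKO (a further cKO sample with cocaine was not analysed here). The samples are described as independent biological replicates.

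Cholesterol is made in the endoplasmic reticulum from acetyl-CoA, through mevalonate, isoprenoids, squalene and lanosterol. The brain makes its own, because the blood-brain barrier keeps out lipoprotein cholesterol, and the adult brain uses it mainly for myelin and for the membranes of neurons and astrocytes. The genes are controlled together by SREBP-2, the protein of Srebf2. When sterols are plentiful, the SREBP-2 precursor is held in the endoplasmic reticulum by SCAP and INSIG proteins; when they are scarce it is carried to the Golgi, cut by proteases, and its free part enters the nucleus and binds sterol regulatory elements near its targets.

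The labels of some libraries could not all be taken at face value. Scaled Maged1 levels were 149.95 to 167.23 TPM in control saline and 64.59 to 77.39 TPM in cKO saline, as the titles say, but after cocaine the order was the opposite of the labels, with 58.53 to 87.69 TPM under the control label and 153.78 to 174.00 TPM under the cKO label. In addition, 4 saline libraries (control replicates 3 and 4, cKO replicates 1 and 2) carry a genotype tag that differs from their title. Titles were used here, every direction that involves genotype after cocaine is one between labels, and the mean of the cocaine effects under both labels is given first, as it weighs both labels equally. The 10 thalamic neuron markers, among them Slc17a6 and Tcf7l2, summed to 399.9 to 756.5 scaled TPM. Of 10 markers of neighbouring forebrain regions, 6 averaged under 1 TPM over the 14 libraries. Markers of other tissue varied between libraries: Ttr, the transthyretin of choroid plexus, was at 1412 TPM in control saline replicate 1 and at 1.5 to 51.1 TPM in the other libraries, and 10 hypothalamic markers summed to 12.3 to 479.1 TPM. In whole tissue, fewer cells of a type and less RNA per cell cannot be told apart.

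Promoter sequences in the RefSeq set (GRCm38.p6) were available for 6 of the 8 genes. Those of 3 genes are shown because they hold letters known from sterol-regulated promoters, namely the sterol regulatory element TCACCCCAC, the same element without its last base, or the palindromic E-box CACGTG that basic helix-loop-helix proteins such as the SREBPs can also bind. Capitals mark the match, and each run ends upstream of the annotated transcription start. Hmgcs1 lies on the plus strand of chromosome 13 (run at chr13:119690101-119690350), Srebf2 on the plus strand of chromosome 15 (chr15:82147019-82147180) and Insig1 on the plus strand of chromosome 5 (chr5:28071162-28071362).
Hmgcs1: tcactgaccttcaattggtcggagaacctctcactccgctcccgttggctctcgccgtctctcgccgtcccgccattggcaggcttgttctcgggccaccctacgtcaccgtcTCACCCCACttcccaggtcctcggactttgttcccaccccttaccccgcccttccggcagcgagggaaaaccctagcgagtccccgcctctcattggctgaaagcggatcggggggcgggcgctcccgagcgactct
Srebf2: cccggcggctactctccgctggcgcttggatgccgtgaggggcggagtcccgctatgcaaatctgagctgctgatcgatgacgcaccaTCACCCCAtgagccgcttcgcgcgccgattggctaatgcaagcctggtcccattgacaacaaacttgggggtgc
Insig1: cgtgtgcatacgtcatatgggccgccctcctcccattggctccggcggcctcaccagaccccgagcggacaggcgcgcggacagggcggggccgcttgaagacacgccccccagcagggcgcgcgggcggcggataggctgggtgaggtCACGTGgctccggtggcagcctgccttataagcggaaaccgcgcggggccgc
Read on both strands of all 32851 promoter windows of 300 bases, TCACCCCAC was found in 0.551% and TCACCCCA, which contains no other motif searched and is contained in the first, in 1.56%. The CCAAT box of NF-Y was found in 37.4% of windows, the SP1 box GGGCGG in 35.7% and CACGTG in 7.15%. CCAAT and GGGCGG occurred in the windows of all 6 genes with a sequence, TCACCCCAC in Hmgcs1, TCACCCCA in Hmgcs1 and Srebf2, and CACGTG in Insig1. These are matches of letters, not measured binding sites.

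Mean levels of the 8 genes ran from 4.79 to 62.1 TPM. TPM values are corrected for transcript length, so that genes can be compared, and were further divided by a scaling factor per library (trimmed mean of M values, TMM); all levels are given on this scale. Hmgcs1, the synthase that makes HMG-CoA for the mevalonate pathway, had the highest level of the set, 62.1 ± 2.78 TPM (SD, n = 14), followed by Srebf2 at 43.6 ± 2.65 TPM and Insig1 at 35.2 ± 3.04 TPM. Sqle, the squalene epoxidase, at 19.7 ± 1.36 TPM, and Fdft1, the squalene synthase, at 19.1 ± 1.90 TPM could not be ordered, since Sqle was above Fdft1 in 9 of 14 libraries. Cyp51, the lanosterol demethylase, was at 13.8 ± 0.801 TPM and Idi1, the isopentenyl-diphosphate isomerase, at 11.8 ± 1.95 TPM, with Cyp51 the higher of the pair in 13 of 14 libraries. Lss, the lanosterol synthase that closes the sterol rings, was lowest of the set at 4.79 ± 0.365 TPM. Each other neighbour in this order differed in the same direction in all 14 libraries.

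**Figure D1:**
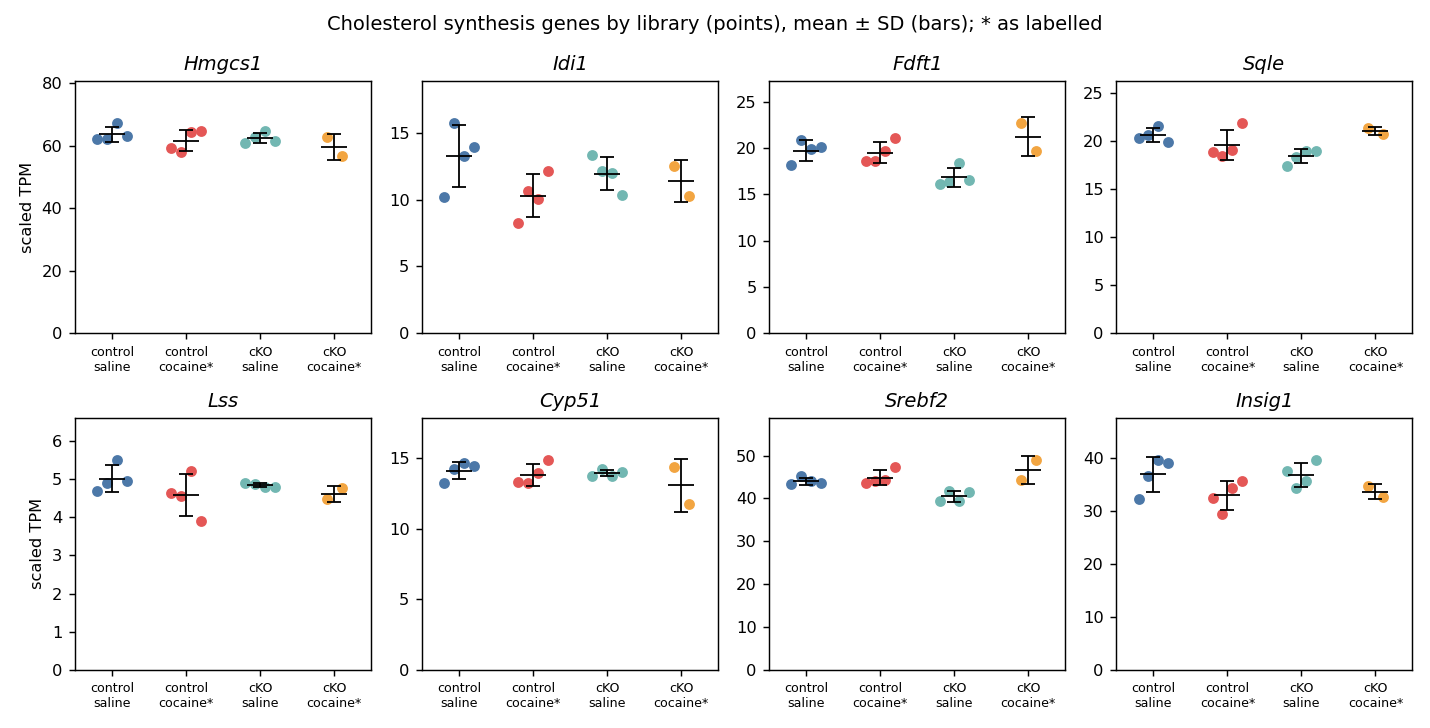
Scaled TPM (vertical axis, from 0) of each gene in each library (points) by group, with the group mean and SD (bars); an asterisk marks groups whose Maged1 level goes against the label. Fdft1 in cKO saline lies between 16.12 and 18.38 TPM and in the libraries labelled cKO cocaine at 22.70 and 19.71 TPM, whereas Hmgcs1 stays between 56.73 and 67.22 TPM in all 14 libraries.

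Replicates differed little in some genes and more in others. The within-group SD on the log2 scale was 0.052 for Srebf2 and 0.065 for Hmgcs1, and 5.7% and 15.0% of all tested genes had a smaller one. Idi1 was the most variable of the 8, with an SD of 0.21, a value above that of 85.3% of tested genes. The median over all tested genes was 0.108, and over the 7828 tested genes with a mean level within the range of the 8 it was 0.09.

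The first comparison asked whether cocaine changed these genes. Over the mean of both labels, 2 of the 8 genes were called, Fdft1 and Srebf2, both higher (lower in TPM without scaling between libraries), at an adjusted p below 0.05 (limma, Benjamini-Hochberg over all tested genes). Calls were common in this comparison, at 33.1% of all tested genes, of which 17.8% were higher and 15.3% lower, so that 2 of 8 is no more than the share over all genes. The median difference of the 8 genes was -0.06 on the log2(TPM + 0.5) scale, against 0.01 over all tested genes. All 8 intervals of this comparison lay within 0.5 log2 units of zero. Regional markers moved in the same comparison. Of 10 thalamic neuron markers 4 were called higher (median 0.30). Of 9 tested hypothalamic markers 4 were called lower (all 9 on the lower side, median -0.62). This hypothalamic shift lay under the control label (all 9 lower, 4 called, median -1.46). Under the cKO label 6 of the 9 were on the higher side, 3 on the lower side and none called (median 0.18). The part of these markers in the values of the 8 genes was not tested.

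In the mevalonate and isoprenoid steps, Hmgcs1 ranged from 61.99 to 67.22 TPM in control saline and from 58.06 to 64.56 TPM under the control cocaine label. Its range was 60.68 to 64.51 TPM in cKO saline, and it was at 62.64 and 56.73 TPM under the cKO cocaine label. The groups overlapped in both comparisons, and the mean cocaine difference was -0.06 (95% interval -0.14 to 0.02). Idi1, which interconverts the isoprenoid building blocks, was at 10.19, 15.77, 13.30 and 13.99 TPM in control saline and at 8.30, 10.70, 10.06 and 12.17 TPM under the control cocaine label. These groups overlapped only through the first control saline library and cocaine replicates 2 and 4, and the difference of -0.35 (SE 0.13, 95% interval -0.64 to -0.06) was not called (adjusted p = 0.0753). It was -0.48 (adjusted p = 0.0178; mean effect -0.28, adjusted p = 0.0374) without control saline replicate 1, the library with Ttr at 1412 TPM, and -0.43 (adjusted p = 0.0482) without control cocaine replicate 4. In cKO saline Idi1 was at 13.36, 12.15, 12.02 and 10.36 TPM and under the cKO cocaine label at 12.55 and 10.30 TPM, a difference of -0.07 (95% interval -0.42 to 0.29). Whether the cocaine effect differed between labels was tested directly, and was not called for Idi1 (0.28, 95% interval -0.17 to 0.74, adjusted p = 0.522).

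In the squalene steps, Fdft1, which joins a pair of farnesyl diphosphates into squalene, was at 18.13, 20.89, 19.84 and 20.06 TPM in control saline and at 18.64, 18.60, 19.72 and 21.07 TPM under the control cocaine label. These values overlapped, with a difference of -0.02 (95% interval -0.15 to 0.12). In cKO saline it was at 16.12, 16.35, 18.38 and 16.58 TPM and under the cKO cocaine label at 22.70 and 19.71 TPM. Both of the latter lay above all 4 saline values, and Fdft1 rose by 0.32 on the log2 scale (SE 0.08, fold 1.25, adjusted p = 0.0116). The mean over both labels was 0.15 (SE 0.05, 95% interval 0.05 to 0.26, adjusted p = 0.0303). The reference of the rise under the cKO label is cKO saline, where Fdft1 was at -0.22 against control saline, not called (limma, adjusted p = 0.12). The part of this reference in the rise was not tested. Maged1 itself differed in the comparisons within labels, by 1.19 on the log2 scale under the cKO label and -1.09 under the control label, so that within each label the effect of cocaine and the Maged1 level cannot be told apart. Without cKO cocaine replicate 1 the rise under the cKO label was 0.22 (adjusted p = 0.128), and the mean effect lost its call without any 1 of 6 libraries (replicates 1, 2 and 4 of cKO saline, 1 of control saline, 4 of control cocaine, 1 of cKO cocaine), at 0.10 to 0.15.

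Sqle, which oxidises squalene and is a rate-controlling step of the later pathway, was at 20.27, 20.60, 21.55 and 19.86 TPM in control saline and at 18.83, 18.47, 19.04 and 21.85 TPM under the control cocaine label. Its 3 lower cocaine values lay under all saline values, and the fourth above them. In cKO saline it was at 17.39, 18.36, 18.95 and 18.92 TPM, and under the cKO cocaine label at 21.35 and 20.70 TPM. The latter did not overlap, but the difference of 0.19 (SE 0.06, 95% interval 0.05 to 0.33) was not called (adjusted p = 0.054). Without control cocaine replicate 4 Sqle was called under both labels, with opposite signs as the labels stand and with Maged1 also of opposite sign, at -0.13 (adjusted p = 0.0495) under the control label and 0.19 (adjusted p = 0.0151) under the cKO label, and the test of the difference between labels gave 0.32 (adjusted p = 0.0435) against 0.26 (adjusted p = 0.114) with all libraries. In the same library the 10 markers of ependymal cilia (Cfap126 at 0 in every group) and the 7 habenula markers were low. They summed to 6.2 and 11.0 TPM, against 20.1 to 33.2 and 52.1 to 184.0 TPM in the other libraries of its group. In cKO saline replicate 1 these sums were alike, at 6.0 and 11.0 TPM. The part of these markers in the result was not tested.

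In the lanosterol steps, Lss ranged from 3.90 to 5.51 TPM and Cyp51 from 11.71 to 14.87 TPM over all libraries. Neither was called in any comparison, and their mean cocaine differences were -0.09 (95% interval -0.21 to 0.03) and -0.06 (95% interval -0.16 to 0.04). Under the cKO label both Lss values with cocaine, 4.47 and 4.77 TPM, lay just under the 4 saline values of 4.79 to 4.90 TPM, as they did for 21.1% of all tested genes. Without cKO cocaine replicate 1, Cyp51 was called lower under the cKO label (-0.24, adjusted p = 0.046) and in the mean effect (-0.13, adjusted p = 0.0331), resting on the remaining value of 11.71 TPM.

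Of the regulators, Srebf2 was at 43.26, 45.19, 44.03 and 43.58 TPM in control saline and at 43.66, 44.10, 44.22 and 47.42 TPM under the control cocaine label, a difference of 0.03 (95% interval -0.06 to 0.11). In cKO saline it was at 39.39, 41.69, 39.45 and 41.46 TPM and under the cKO cocaine label at 44.40 and 49.04 TPM, with no overlap. Srebf2 rose there by 0.20 on the log2 scale (SE 0.05, fold 1.15, adjusted p = 0.0127), and the mean effect was 0.11 (SE 0.03, fold 1.08, adjusted p = 0.0144). Without cKO cocaine replicate 2 neither was called, at 0.13 (adjusted p = 0.188) and 0.08 (adjusted p = 0.118). Insig1, whose protein retains SCAP in the endoplasmic reticulum and whose transcription SREBP-2 itself drives, was at 32.27, 36.55, 39.53 and 39.07 TPM in control saline and at 32.36, 29.32, 34.23 and 35.52 TPM under the control cocaine label. In cKO saline it was at 37.54, 34.31, 35.56 and 39.60 TPM, and under the cKO cocaine label at 34.57 and 32.63 TPM. The groups overlapped under both labels, and the mean difference of -0.14 (SE 0.06, 95% interval -0.27 to -0.02) was not called (adjusted p = 0.0731). Without control saline replicate 1 Insig1 was called lower, with a mean effect of -0.18 (adjusted p = 0.0166) and -0.24 (adjusted p = 0.0294) under the control label. Mir33, the microRNA gene inside an intron of Srebf2, was listed at 0 in all 14 libraries.

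**Figure D2:**
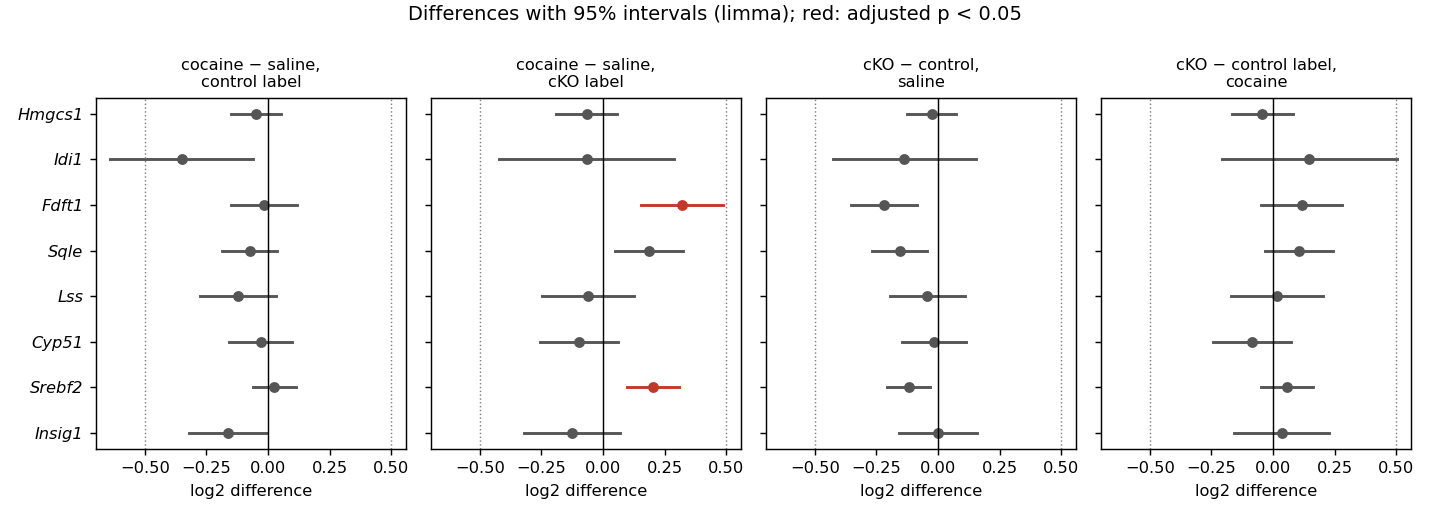
Log2 differences (horizontal axis, dotted lines at 0.5 either side of zero) of the 8 genes with 95% intervals in the comparisons within labels and between genotypes; red marks an adjusted p below 0.05. Red appears only for Fdft1 (0.32) and Srebf2 (0.20) under the cKO label, and the widest intervals are those of Idi1; in TPM as deposited these 2 values were -0.06 and -0.19.

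Separated by label, none of the 8 genes was called after cocaine under the control label, where 24.4% of all tested genes were (limma; 2 of the 8 had an unadjusted p under 0.05, as did 37.1% of all tested genes), and 2 of 8 were called under the cKO label, where 20.2% were, 10.2% higher. Under the cKO label Fdft1, Srebf2 and Sqle lay above saline with no overlap between groups, as did 22.6% of all tested genes, in an arm of 2 libraries. In this comparison 10 of 12 oligodendrocyte markers were on the lower side (median -0.30, 1 called lower) and all 9 tested ependymal markers on the higher side (median 0.97, 1 called higher), and their part in the rise of Fdft1 and Srebf2 was not tested. The difference between the labels' cocaine effects was called for none of the 8 genes and for 1.28% of all tested genes. It had an unadjusted p under 0.05 for 3 of the 8 and for 18.1% of all tested genes, the 3 being Fdft1 (0.34, adjusted p = 0.0971), Sqle (0.26, adjusted p = 0.114) and Srebf2 (0.18, adjusted p = 0.163). For this difference between labels, all 12 oligodendrocyte markers were on the lower side (median -0.57) and all 9 tested ependymal markers on the higher side (median 1.52), none called. Of 9 tested hypothalamic markers 7 were on the higher side and 2 on the lower (median 1.88), with 4 called higher. The part of these markers in the values of Fdft1, Sqle and Srebf2 was not tested. The calls under the cKO label rest on the titles. With genotypes taken from the tags Fdft1 was at 0.18 (adjusted p = 0.297) and Srebf2 at 0.15 (adjusted p = 0.154), and with only the libraries whose title and tag are the same at 0.26 (adjusted p = 0.162) and 0.19 (adjusted p = 0.118).

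The comparison of genotypes after saline asked whether loss of Maged1 in Vglut2 neurons alone went with a change of these genes. None of the 8 was called, and 0.178% of all tested genes were. An unadjusted p under 0.05 was found for 3 of the 8 and for 16.7% of all tested genes. All 3 were on the lower side in cKO: Fdft1 at -0.22 (SE 0.06, 95% interval -0.35 to -0.09, adjusted p = 0.12), Sqle at -0.16 (SE 0.05, adjusted p = 0.164) and Srebf2 at -0.12 (SE 0.04, adjusted p = 0.169). Sqle and Srebf2 did not overlap between groups, which was the case, in the lower direction, for 6.44% of all tested genes, and Fdft1 overlapped through cKO replicate 3 (18.38 TPM) and control replicate 1 (18.13 TPM). With genotypes from the tags the direction was lost, at 0.07 for Fdft1, 0.05 for Sqle and -0.01 for Srebf2, and the median of the 8 genes was 0.05 against -0.08 with titles. All 8 intervals, with titles, lay within 0.5 log2 units of zero. Oligodendrocyte markers stood beside this: all 12 were higher in cKO saline by a median of 0.45, none of them called, and their summed level was 1899.5 to 2691.1 TPM in cKO saline against 1543.5 to 1855.9 TPM in control saline. All 7 habenula markers and all 9 tested ependymal markers were lower in cKO saline, with medians of -1.22 and -0.76 and none called. So were all 9 tested hypothalamic markers (median -0.95, 1 called) and all 3 tested choroid plexus markers (median -1.33, none called). The part of these cells in the differences of Fdft1, Sqle and Srebf2 was not tested.

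After cocaine, none of the 8 genes was called between the label cKO and the label control, and 0.0594% of all tested genes were (limma; none of the 8 had an unadjusted p under 0.05, against 11.9% of all tested genes). Differences ran from -0.08 for Cyp51 to 0.15 for Idi1. The interval of Idi1 reached 0.50, and those of the other 7 lay within 0.5 log2 units of zero. Because Maged1 goes against the labels here, the direction is that of the labels only.

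The scaling between libraries decided the direction of several of these values. Scaling factors were 1.07 to 1.22 in saline and 0.807 to 0.939 in cocaine libraries. Without them, in TPM as deposited, the median of all tested genes was shifted by -0.335 log2 units under the mean cocaine effect, and all 8 genes were then called lower, from -0.22 for Fdft1 to -0.57 for Idi1. Srebf2 turned from 0.11 to -0.26, and relative to the shift of all genes it was at 0.07 and Fdft1 at 0.11. With median-of-ratios scaling the same 2 genes were called, both higher, as with TMM.

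Counts for the other lists are read against the mean cocaine effect over all tested genes, of which 33.1% were called, 17.8% higher and 15.3% lower. Of 15 other sterol synthesis enzymes, all tested, 3 rose and 1 fell, a share no larger than that background. Pmvk, phosphomevalonate kinase, rose by 0.42 (SE 0.04, adjusted p = 2.14e-05), and Mvd, the decarboxylase that follows it, by 0.27 (adjusted p = 0.00969). Msmo1, the methylsterol oxidase acting after Cyp51, fell by 0.24 (SE 0.04, adjusted p = 0.000493). The median of the list was 0.08, against -0.06 for the 8 genes and 0.01 for all tested genes. In TPM as deposited, a setting added for these lists after seeing the data, 13 of the 15 were called lower and none higher, with Pmvk at 0.05 and Mvd at -0.09, not called.

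Among 13 genes of SREBP processing and sterol uptake, of which 12 were tested, 2 rose and 3 fell, against the background of 33.1% called. Scap, the SREBP escort protein, rose by 0.17 (SE 0.04, adjusted p = 0.00549). Insig2, the second of the retention proteins, fell by 0.21 (adjusted p = 0.00213), and Mbtps2, the protease that makes the last cut of SREBP, by 0.25 (adjusted p = 0.000779). Of 14 genes of sterol export and turnover, 12 were tested, and 4 rose and 1 fell, against the same 33.1%. Apoe, the main brain apolipoprotein, made largely by astrocytes, rose by 0.42 (SE 0.05, adjusted p = 7.8e-05), Nr1h2, the liver X receptor beta, by 0.25 (adjusted p = 0.00107), Abcg4, a sterol exporter, by 0.22 (adjusted p = 0.00212), and Lrp1, an ApoE receptor, by 0.15 (adjusted p = 0.00501). Of 10 fatty acid synthesis genes 4 rose and none fell, where 17.8% of all tested genes were higher, namely Fasn (0.22, adjusted p = 0.000672), Acly (0.16, adjusted p = 0.000874), Fads2 (0.13, adjusted p = 0.00698) and Fads1 (0.12, adjusted p = 0.0121). In TPM as deposited no gene of these 3 lists was called higher, and 9, 9 and 10 were called lower. With only the libraries whose title and tag are the same, Lrp1, Fads2 and Fads1 lost their calls, as Fads1 did without cKO cocaine replicate 2 and Mvd without cKO cocaine replicate 1. Of 10 astrocyte markers 4 rose and 1 fell in the same comparison (33.1% of all tested genes were called), their sum being 772.5 to 882.0 TPM under the control cocaine label against 716.3 to 781.3 TPM in control saline; the part of astrocytes in the rise of Apoe was not tested.

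**Figure D3:**
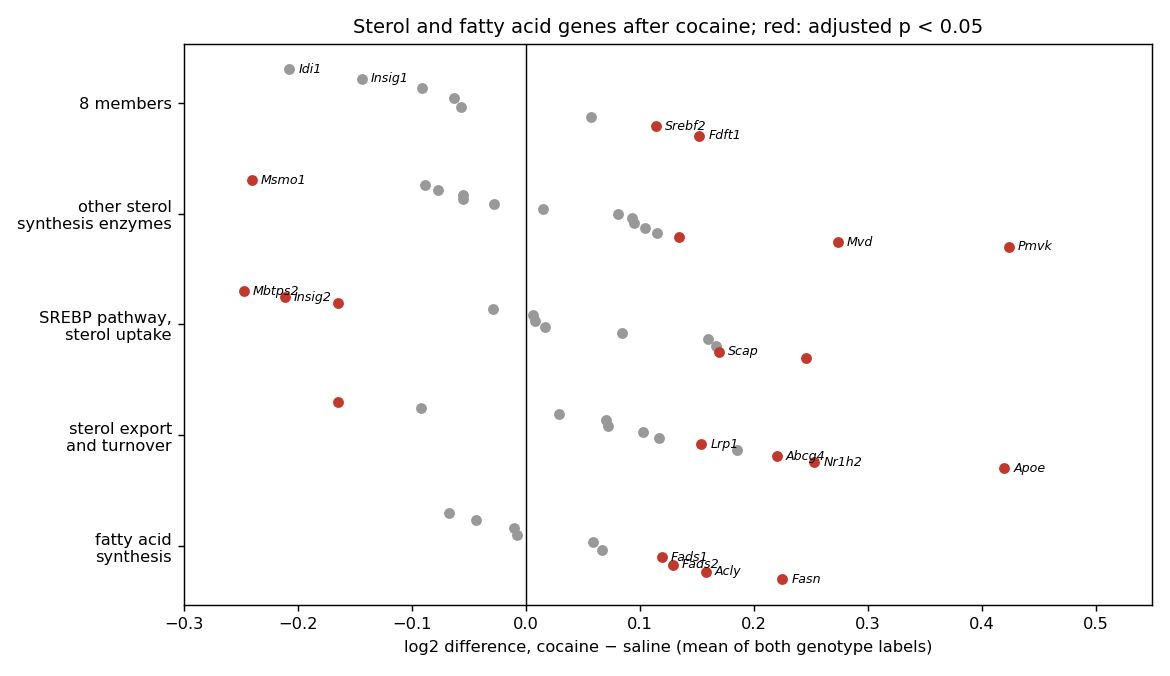
Log2 difference between cocaine and saline (horizontal axis, mean of both labels) of each tested gene, by list (vertical axis, points spread within a list by size); red marks an adjusted p below 0.05. Srebf2 (0.11) and Fdft1 (0.15) are the called genes of the 8, and Pmvk and Apoe (both 0.42) lie furthest to the right; in TPM as deposited Srebf2 and Fdft1 lie left of zero.

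Libraries of one group that were high in one of these genes tended to be high in others. After subtraction of each group's mean, 20 of the 28 gene pairs were positively correlated over the 14 libraries and 11 had an r above 0.5, with a median of 0.36. The highest was Hmgcs1 with Cyp51 (r = 0.79), and the lowest Sqle with Lss (r = -0.45). Lss was weakly or negatively related to all others, and Srebf2 was near zero against Hmgcs1 (-0.07), Fdft1 (-0.01) and Cyp51 (-0.08). The points share library scaling and the RNA of one dissection, 14 libraries hold 10 residual degrees of freedom, and no p is given.

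**Figure D4:**
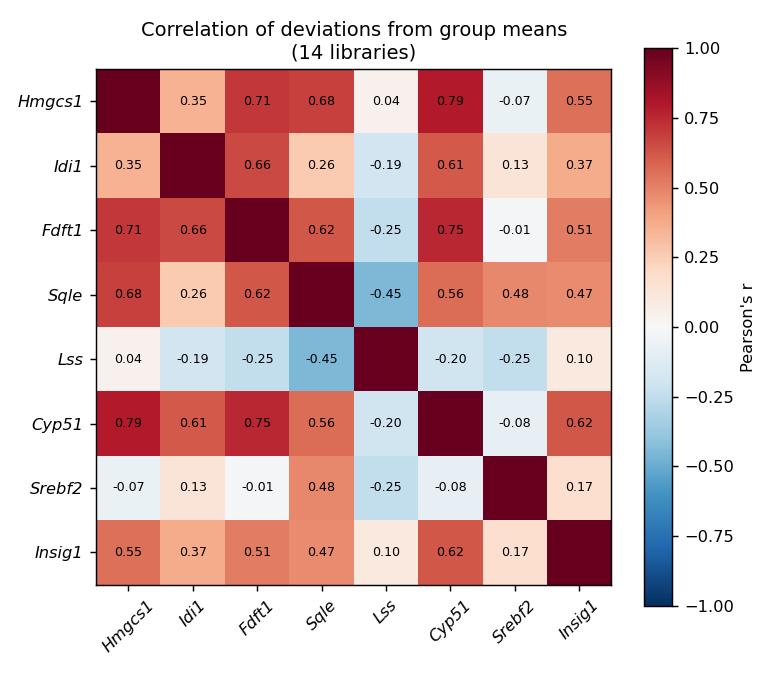
Pearson's r of the log2 deviations from group means for each pair of the 8 genes over 14 libraries, from blue (-1) to red (1). Hmgcs1, Fdft1, Sqle, Cyp51 and Insig1 are positively related to each other, between 0.47 and 0.79, and Lss is not.

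The 13463 tested genes outside the set were compared with the mean standardised deviation of the 8 genes within groups. The genes named were picked by rank from all of these, so no p is given. Among those most like it were Syt14 (r = 0.89, Spearman's rho 0.88), Nxph1 (0.88), Vps13a (0.87) and Mvd (0.86). Hsd17b7, a reductase of the later pathway, was at 0.79. The libraries furthest from the median of the 8-gene mean were control saline replicate 1 and control cocaine replicate 4; without them Syt14 was at 0.77, Nxph1 at 0.75, Vps13a at 0.81, Mvd at 0.72 and Hsd17b7 at 0.77. Their ranks were then 20 for Syt14, 28 for Nxph1, 8 for Vps13a, 40 for Mvd and 22 for Hsd17b7. In TPM as deposited, where all genes of a library share its scale, Syt14 was at 0.96 and Mvd at 0.92. There Syt14 ranked 2, Vps13a 25, Mvd 26, Nxph1 179 and Hsd17b7 1084. Both of these settings were chosen after seeing the data. Over all libraries, without subtracting group means, the genes most like the 8 included C030005K06Rik (0.89), Nxph1 (0.85), Rab26 (0.81) and Aldh3b2 (0.76). C030005K06Rik and Aldh3b2 were low genes, each with a mean of 0.9 TPM.

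**Figure D5:**
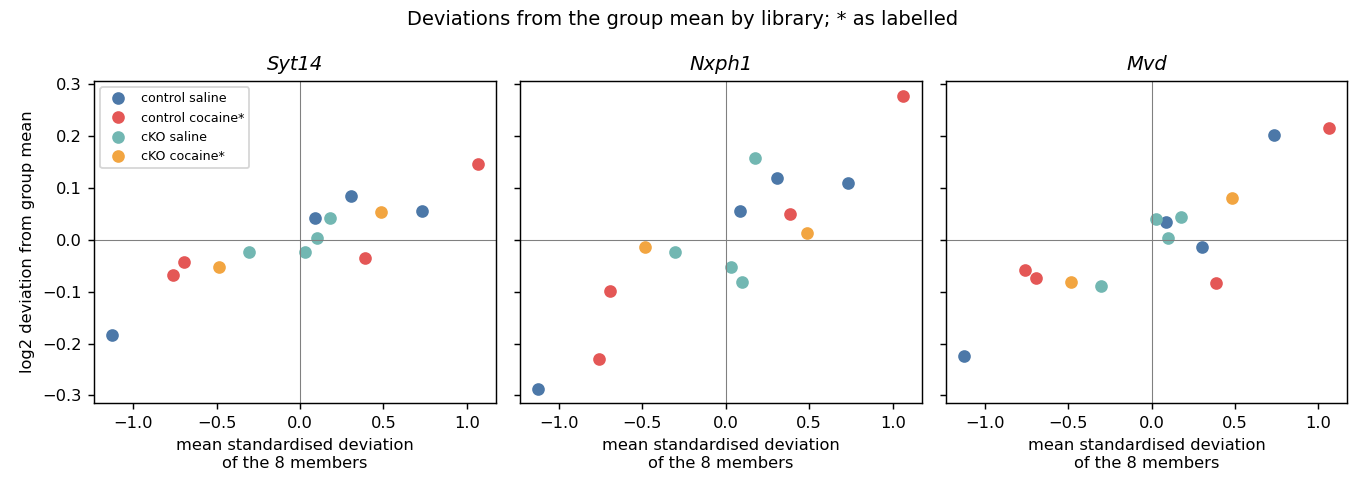
Log2 deviation from the group mean (vertical axis) of Syt14, Nxph1 and Mvd against the mean standardised deviation of the 8 cholesterol synthesis genes (horizontal axis) in each of 14 libraries, coloured by group, asterisks as labelled. Mvd runs from -0.224 in control saline replicate 1 to 0.216 in control cocaine replicate 4 along with the 8 genes.

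Some of the 8 genes share sequence with other loci. Fdft1 (chromosome 14, 63145150 to 63179578, minus strand, GRCm38) overlaps Ctsb on the other strand by 774 bases and has a processed pseudogene, Gm6781, that is 97.4% identical over 1249 bases. Ctsb, a lysosomal protease gene, was at -0.04 after cocaine under the cKO label (limma, adjusted p = 0.762), where Fdft1 was called. The libraries were directional, and how reads were divided in this overlap was not examined. Idi1 has 3 processed pseudogenes with identities of 90.4% to 100.0% over 679 to 684 bases. How reads were divided between such pseudogenes and Fdft1 or Idi1 was not examined here. Cyp51 overlaps Akap9 by 166 bases on the other strand. Lss lies opposite 4930483K19Rik, which was at 0.03 TPM or less. Srebf2 overlaps Gm49502 on the same strand by 2110 bases, and Hmgcs1 overlaps Gm48342 on the other strand by 6190 bases. Neither Gm49502 nor Gm48342 was among the listed genes, and how reads were divided there was not examined.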

How the data were processed

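RNA of whole thalamus was ribosome-depleted, made into directional libraries (NEBNext Ultra II) and sequenced as pairs of 100 bases by the authors, who aligned reads with STAR 2.5.3a, quantified with salmon (GRCm38, Ensembl annotation) and deposited 1 table of TPM values per sample. TPM keeps no depth, so depth per library is unknown here; the listed genes summed to 312659 to 377401 TPM. The deposited TPM tables of 2 libraries use a decimal comma, recorded as another unit and read as numbers.

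TPM values were divided by unweighted TMM factors (trims of 30% and 5%), genes under 1 TPM in all but 2 libraries were dropped, and log2(TPM + 0.5) was tested with limma 3.58.1 (trend; R 4.3.3) in one model of 4 groups, with Benjamini-Hochberg adjustment; a call is an adjusted p below 0.05. Fold changes on this scale understate those of low genes. The authors tested TMM-scaled counts with limma; counts were not used here. The procedure was run on simulated data with independent noise per gene and changes added in 1 group. That setting is simpler than these data and does not bear on shifts shared by many genes. Named genes are the 8, Maged1, up to 4 called genes per related list with the smallest adjusted p, and the 5 genes most like the 8; some genes this rule names are not reported here. The genes and lists were chosen with earlier results of these data known. Overlaps with other loci were read from GENCODE and with BLAST 2.17.0. Alternatives were the scaling, pseudocount, filter, model, labels and single libraries.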

Additional observations from a re-analysis of the deposited data

Results flagged for a closer look

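In the libraries labelled control cocaine, replicate 4 stood apart from the other 3 in 2 of the 8 genes. Sqle was at 21.85 TPM there against 18.47 to 19.04 TPM, and the gap made up 0.832 of the group's range. Srebf2 was at 47.42 TPM against 43.66 to 44.22 TPM, with a gap of 0.852 of the range. These were 2 of 24 gene and group combinations of 4 libraries examined, where chance alone marks about 1 in 20.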

How the results depend on the processing

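The number of the 8 genes called moved as follows. In TPM as deposited it was 8 in the mean cocaine effect, 8 under the control label and 5 under the cKO label, all lower, and the called genes reversed: Srebf2 to -0.26 and Fdft1 to -0.22 in the mean effect, and to -0.19 and -0.06 under the cKO label. In the mean effect it was 1 with genotypes from the tags (Insig1, lower), 0 with libraries whose title and tag are the same, 0 with a fold minimum of 0.5 and 1 without a genotype term (Insig1, lower; chosen after seeing the data). Under the cKO label it was 1 with only the groups compared and 0 with tags, with concordant libraries and with the fold minimum. Leaving out 1 library at a time gave 1 to 3 calls in the mean effect, 0 to 2 under the control label, 1 to 3 under the cKO label and 0 to 1 for the difference between labels; where this left 1 cKO cocaine library, it was assumed to vary like the other groups. Other pseudocounts, filters and median-of-ratios scaling left each count within 1.5 times, although Sqle joined the calls under the cKO label with a mean of at least 5 TPM (adjusted p = 0.0409).

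Replicate numbers did not pair the samples: same-numbered libraries of different groups had a mean r of deviations of -0.0138 over 18 pairs, against 0.00458 over 54 pairs with different numbers. With the replicate number as a block, the calls were 2 in the mean effect, 0 under the control label and 3 under the cKO label (Sqle 0.23, adjusted p = 0.0486), and 0 in the other comparisons. Without counts or depth, the precision of single values could not be given.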
